A study of Mus musculus with 16 samples.

Results

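The 7 newly derived F lines of the series, those that produced pups entirely from their own cells, were compared by how far these pups developed. In 3 of the lines (AN1, AI3 and AI7) pups grew into adults, and in 4 (AN9, AN15, AN20 and AI10) pups were born but none became adult. The 7 lines are part of 16 sequenced lines, with 1 RNA library per line. The outcome of each line came from the study's record of the tetraploid complementation assay, matched by line name, and is not given in the sample labels. Some lines produced only a handful of pups, so the label "newborn only" cannot exclude that more pups would have included an adult. GS32, an F line identified in earlier work, was left out.

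All 7 lines came from the strain labelled 129-M2rtTA, which carries the doxycycline-controlled transactivator in every cell, and from adipocyte progenitor cells (APCs) of mice made from 1 earlier iPSC clone. The lines therefore share the genomic insertions of the reprogramming factors. AN lines are embryonic stem cells derived after nuclear transfer of an APC (ntESCs), and AI lines are induced pluripotent stem cells (iPSCs) made by giving doxycycline to APCs. They were grown with serum and leukemia inhibitory factor, and the mouse embryonic fibroblasts of the feeder layer came from ICR mice. The adult group held 1 AN line and 2 AI lines, the newborn only group 3 AN lines and 1 AI line. The 3 adult lines and AI10 were at passage 7, whereas AN9, AN15 and AN20 were at passage 6, so within the AN lines outcome and passage cannot be told apart.

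In tetraploid complementation, pluripotent cells are placed in a blastocyst whose own cells are tetraploid. The tetraploid cells contribute mainly to the extraembryonic tissues, and the fetus forms from the injected cells. The assay is regarded as the strictest functional test of a mouse pluripotent line, and pups that form can still die around birth. Imprinted genes, which are expressed from 1 parental allele and control fetal and placental growth, are often examined in such lines because their marks can be lost during reprogramming or culture.

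1 gene passed the adjusted threshold between the outcomes, and its transcript is a small nucleolar RNA (snoRNA), so the sequence behind this result is shown first. Snord91a is annotated at chr11:74718926-74719018 on the forward strand of mm9, inside a gene of the same strand, Tsr1. None of the 7 annotated Tsr1 transcripts has an exon over it, and 4 of them span it, so it lies in an intron. The second sequence, Snora2b at chr15:98356777-98356913 on the reverse strand, inside 2310037I24Rik, had the second smallest p-value. Both are given 5′ to 3′ from the mm9 genome, as DNA.
Snord91a: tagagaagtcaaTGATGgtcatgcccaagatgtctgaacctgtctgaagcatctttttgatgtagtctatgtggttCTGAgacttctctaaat
Snora2b: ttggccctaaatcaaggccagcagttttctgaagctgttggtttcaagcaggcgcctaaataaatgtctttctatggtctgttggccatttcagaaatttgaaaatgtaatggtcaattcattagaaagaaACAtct
In Snord91a the capitals mark the first TGATG and the last CTGA on the sense strand, the core letters of the C and D boxes that define box C/D snoRNAs, which guide methylation of ribosomal RNA. Of 63 annotated Snord genes, 57 (90.5%) hold TGATG and 63 hold CTGA on the sense strand, so the letters are general features of the class. In Snora2b the capitals mark the ACA that stands 3 bases before the end, as in box H/ACA snoRNAs, which guide pseudouridylation. These genes are 93 and 137 bases long, and very few reads can give them a large FPKM value. The smallest step of a gene, which may be 1 read, was 647 FPKM for Snord91a in AI10 and 13.5 FPKM for Snora2b in AN9. The lengths differ far less than these values, and how short genes were scaled was not examined.

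Expression was measured as FPKM, in which the reads of a gene are scaled for transcript length and for library size, and compared as log2(FPKM + 1). The tested genes were those that averaged 1 FPKM or more in the 7 lines, 11949 of 22552. Because read counts were not analysed, the absolute depth is unknown, but the step between low values gave the depth relative to AN1 (set to 1). It was 0.961 to 1.00 in the adult lines and 1.02 to 1.19 in the newborn only lines, so the groups did not overlap in depth. Genes of small RNAs took 15.8% to 20.3% of summed FPKM in the adult lines and 17.4% to 28.1% in the newborn only lines, with AN9 and AN20 at the top. Without the small RNA genes, the correlation of log2 values between 2 lines ranged from 0.970 to 0.994 for pairs of different outcome and from 0.956 to 0.992 for pairs of the same outcome, and the 2 ranges overlapped. The most similar pair was then AI7 and AN15, which differ in both outcome and derivation, whereas with the small RNA genes it was AN1 and AI3 (0.966), which share the outcome.

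The labelled cell type was reflected in all lines. Pou5f1, which encodes Oct4, was at 814, 799 and 806 FPKM in AN1, AI3 and AI7 and at 813, 818, 712 and 615 in AN9, AN15, AN20 and AI10. It was thus strongly expressed in every line, and its lowest value was that of AI10. Transcripts of fibroblasts were also present in every line, and none of the 40 fibroblast and feeder markers was listed at 0 in all 7. Their levels are given with the lists below.

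The outcomes were compared with limma, with derivation (AN or AI) as a term. The fitted difference is adult minus newborn only. It gave a weight of 52.9% to the difference within AN, which rests on 1 adult line, and 47.1% to that within AI, which rests on 1 newborn only line. At an adjusted p under 0.05, 1 of the 11949 genes (0.00837%) was called. An unadjusted p under 0.05 was found for 235 genes higher in the adult lines (1.97%) and for 166 lower (1.39%). The 3 adult lines all lay above the 4 newborn only lines for 428 genes (3.58%) and all below them for 255 (2.13%). The balance of the unadjusted calls depended on scaling, with 58.6% of them higher as deposited and 45.2% higher (176 higher, 213 lower) after median-ratio scaling, which moved the median difference of all genes from 0.02 to -0.01.

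Snord91a was listed at 0 in AN1, AI3 and AI7 and at 2132, 1498, 3201 and 647 FPKM in AN9, AN15, AN20 and AI10. The groups did not overlap, and limma gave an adjusted p of 0.000399 with a log2 difference of -10.26 (SE 0.42) that depends on the pseudocount. The 4 nonzero values equal 3, 2, 5 and 1 times the value of the smallest step of this gene, to within 0.0001 of a whole number. If the smallest step is 1 read, the call rests on 11 reads over the 4 newborn only lines. Among the 9 other lines of the series, 7 were at 0, and AN2 (786 FPKM) and AN7 (721 FPKM) had 1 step each. With the spread of all 16 lines in the fit, the adjusted p of Snord91a was 0.9996. Tsr1, the gene around Snord91a, encodes a ribosome assembly factor and was chosen after values were seen. Its level was 66.9 to 76.8 FPKM over the 7 lines with overlapping groups.

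Of the 11949 tested genes, 3 were listed at 0 in every adult line and above 0 in every newborn only line, and 0 showed the reverse. Beside Snord91a these were Snora2b and Mir669i, and all 3 passed the filter only through the newborn only lines. Without the filter the same pattern was found for 29 of the 22552 genes of the table against 10 for its reverse, and this direction was not tested. Snora2b was at 13.5, 28.4, 60.7 and 36.8 FPKM in AN9, AN15, AN20 and AI10 (1, 2, 5 and 3 steps), with an adjusted p of 0.0764. Mir669i, a microRNA gene named here after its values were seen, was at 15.7, 8.30, 35.5 and 7.17 FPKM (2, 1, 5 and 1 steps), with an adjusted p of 0.590. All 3 genes were highest in AN20, the line with the greatest relative depth of the 7 (1.19). AI10, at a depth of 1.18, had the lowest Snord91a and Mir669i values of the newborn only lines. Outside the comparison, AN2 was above 0 in all 3 genes at a depth of 0.971, and GS4 was at 0 for Snord91a at 1.26. The depth was higher in each newborn only line than in each adult line, and its part in these zeros was not tested. When genes listed at 0 in any of the 7 lines were left out, 0 genes were called by limma, with 228 higher and 160 lower at an unadjusted p under 0.05.

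Longer transcripts were described by whether the 2 groups overlapped. Genes that are no small RNA gene, had a mean of at least 3 FPKM and did not overlap between the outcomes numbered 363 with higher and 210 with lower values in the adult lines. Of all tested genes, 5.72% did not overlap. An arbitrary split of the lines gives about this share, as the smallest two-sided p of the exact permutation test is 0.0571. Among the 363 and the 210 genes, the 15 with the smallest p in each direction are called leading genes here. They were selected on the comparison, so their separation is a description. After adjustment, limma's p was 0.994 for all 30. The ratio of group means was 1.26 to 6.57 in the higher genes and 0.380 to 0.802 in the lower genes.

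The leading higher genes include enzymes and trafficking proteins. 1500011B03Rik, a gene of unassigned name, was at 31.7, 34.4 and 31.6 FPKM in AN1, AI3 and AI7 and at 23.4, 23.5, 19.4 and 21.7 in AN9, AN15, AN20 and AI10. Its log2 difference was 0.54 (SE 0.12), and the adult lines stood close together. Cdc25b, a phosphatase that activates cyclin-dependent kinases at entry into mitosis, was at 7.98, 8.26 and 7.16 FPKM in the adult lines and at 5.92, 5.83, 5.98 and 5.05 in the others. Nubp2, which acts in the assembly of iron-sulfur clusters, was at 74.3, 75.4 and 72.9 FPKM against 61.9, 62.7, 57.0 and 50.6. For both genes the lowest value was that of AI10. Cltb, a light chain of clathrin, was at 30.6, 29.9 and 27.7 FPKM in the adult lines and at 22.9, 22.7, 21.3 and 23.8 in the newborn only lines, a log2 difference of 0.36 (SE 0.11).

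Mt3, a metallothionein that binds zinc and copper, had a larger ratio but a wider spread. It was at 6.99, 10.3 and 5.23 FPKM in AN1, AI3 and AI7 and at 4.23, 2.77, 4.53 and 2.60 in AN9, AN15, AN20 and AI10, a ratio of 2.12. Apoo-ps, whose name marks it as a pseudogene of Apoo and whose reads may be shared with that gene, was at 8.60, 7.86 and 9.67 FPKM in the adult lines. In the newborn only lines it was at 5.31 in AN15 and under 0.001 in AN9, AN20 and AI10, so that AN15 stood with the adult lines. Without AN15 its log2 difference was 3.27, but the gene was chosen on this comparison and AN15 is the line against the split. The AN P lines, from which no pups were born, were at 4.77 to 13.0 FPKM, like the adult lines. Among the AI P lines AI9 and GS4 were at 7.02 and 7.59 FPKM, and GS9 was under 0.001. The other higher genes were Stard5, which binds sterols and bile acids, AA465934, Stoml1, Krtcap3, Camkv, Acyp2, Mospd3, Gpatch3 and E130306D19Rik, with log2 differences of 0.37 to 0.54.

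The leading lower genes include transcription factors and signalling enzymes. Ccdc91, a protein of vesicle transport from the Golgi, had the smallest p of the 30 (0.00142, unadjusted limma test). It was at 4.45, 4.96 and 5.19 FPKM in AN1, AI3 and AI7 and at 7.39, 8.11, 7.16 and 7.59 in AN9, AN15, AN20 and AI10, a log2 difference of -0.58 (SE 0.12). The 2 groups were each tight and well apart. Klf6, a zinc finger transcription factor, was at 34.98, 34.6 and 41.7 FPKM against 45.6, 43.8, 44.8 and 51.03. Cdx1, a homeobox factor of the posterior embryo, was at 1.38, 0.721 and 2.64 FPKM against 3.28, 6.11, 3.02 and 4.20, a ratio of 0.380. In these genes AI7 was the adult line nearest to the newborn only lines.

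Dock11, an activator of the small GTPase Cdc42, was at 4.58, 4.21 and 4.90 FPKM in the adult lines and at 6.44, 5.73, 7.17 and 7.02 in the newborn only lines. Ppp3cb, a catalytic subunit of calcineurin, was at 20.8, 19.5 and 21.1 FPKM against 28.0, 23.6, 24.2 and 28.3. Aldh6a1, a mitochondrial enzyme of valine breakdown, was at 2.90, 2.71 and 2.95 FPKM against 4.795, 4.34, 5.38 and 3.66. The adult lines differed little from each other in all 3 genes. Rprd1a, which binds the tail of RNA polymerase II, was at 9.30, 9.70 and 12.2 FPKM against 18.7, 15.1, 16.9 and 13.1, and here AI10 was the nearest newborn only line. The other lower genes were Mum1l1, 1600020E01Rik, Plk1s1, Cryzl1, Tatdn1, the ubiquitin ligase Rnf19a, Ttc13 and Lpar6, a receptor for lysophosphatidic acid, with log2 differences of -0.56 to -0.37.

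**Figure D1:**
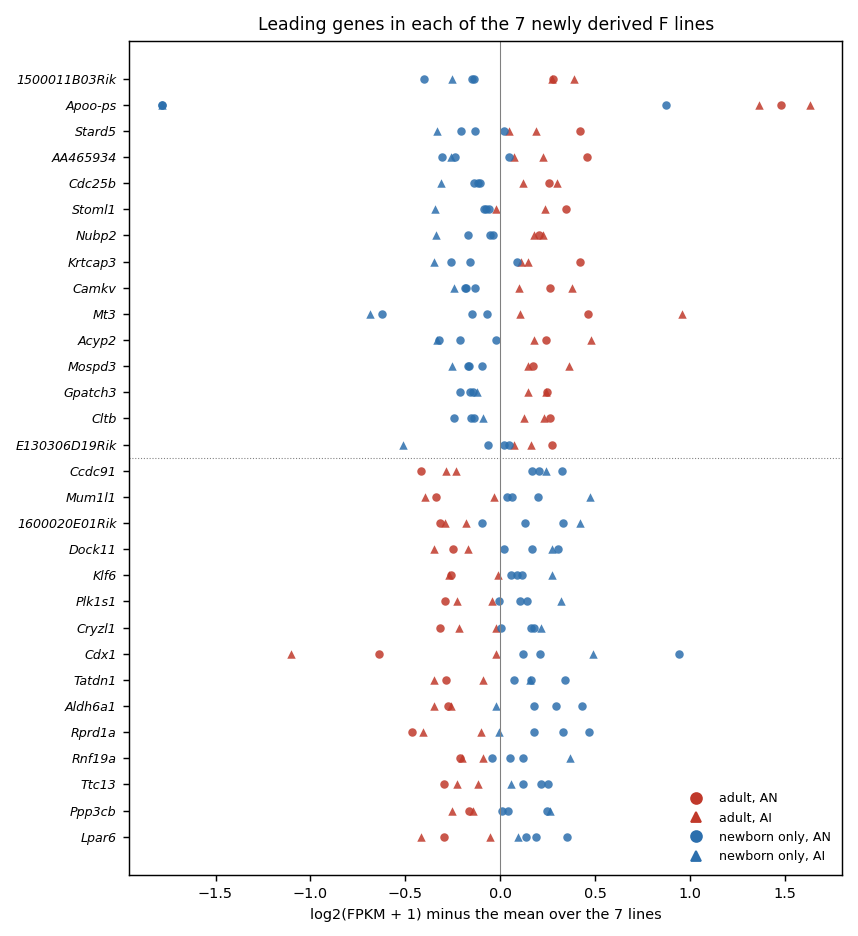
Log2(FPKM + 1) of the 30 leading genes in the 7 lines, each minus the mean over these lines (horizontal axis), with the 15 higher genes above the dotted line. Each point is 1 line, in red for adult and blue for newborn only, as a circle for AN and a triangle for AI; most genes separate by less than 1 unit, and Apoo-ps has the widest spread.

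The 9 lines that did not enter the comparison were placed by the same 30 genes, by counting the genes for which a line lay on the adult side of the midpoint between the group means. The AN P line AN2, from which no pups were born, lay on the adult side for 28 of 30 genes. AN5 and AN7, also AN P lines, did so for 22 and 21, while AN3 and AN6 did so for 9 and 7. Lines of the same P group thus fell at both ends. GS32, the F line left out, lay on the adult side for 21 genes, and the AI P lines GS4, GS9 and AI9 for 18, 9 and 5.

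The differences within the 2 derivations were then set side by side. AN1 minus the mean of AN9, AN15 and AN20 uses other libraries than the mean of AI3 and AI7 minus AI10. Over the 11949 genes the Pearson correlation of these differences was -0.07 and Spearman's rho was -0.23, a description across genes, which are not independent replicates. The sign was the same for 41.8% of the genes. In 2759 genes (23.1%) the lines separated in opposite directions, with AN1 and AI10 both above the lines of their own derivation in 1209 genes and both below them in 1550. All adult lines lay above, or all below, every newborn only line in 683 genes (5.72%). This rule is stricter, because it also compares lines across derivations. The 2 shares can therefore not be set against each other, and genes that separate in the same direction only within each derivation were not counted.

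**Figure D2:**
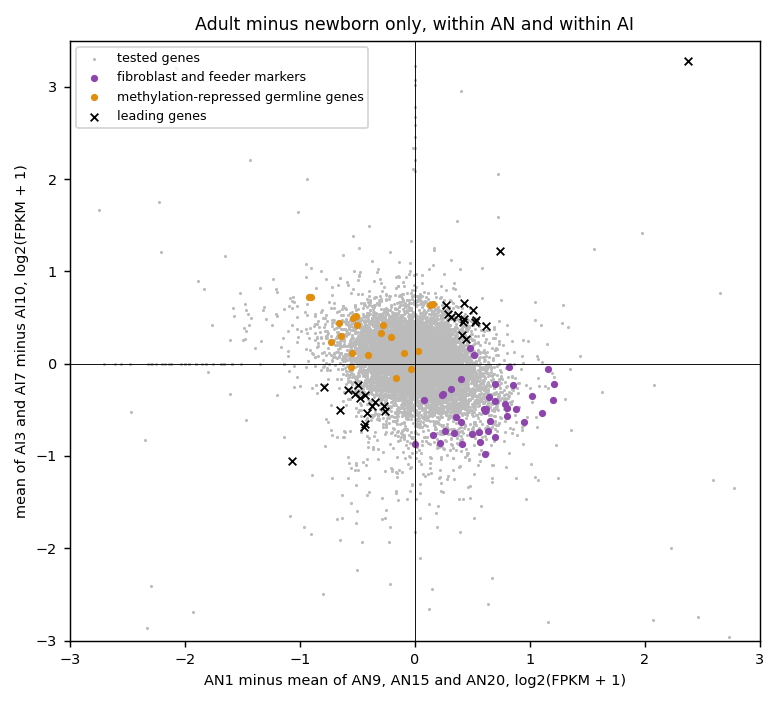
Adult minus newborn only difference in log2(FPKM + 1) within AN (horizontal axis) and within AI (vertical axis), 1 point per tested gene, with 84 genes outside the plotted range. Fibroblast and feeder markers (purple) lie mostly at the lower right and germline genes (orange) mostly at the upper left, where the derivations differ in sign, and the leading genes (crosses) lie where the signs agree by the rule that chose them.

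The interaction of outcome and derivation, that is, whether the difference in AI departs from that in AN, passed an adjusted p under 0.05 for 23 of the 11949 genes (0.192%) in limma's test, and at an unadjusted p under 0.05 for 912. It sets a difference that rests on AN1 against one that rests on AI10, so a value of either line alone can give a call. Of the 23 genes, 21 are small RNA genes, and 20 were listed at 0 in at least 1 of the 7 lines. The remaining 2, Gm5523 and Cxcl1, were singled out after their values were seen. Cxcl1, a chemokine that attracts neutrophils, was at 8.90, 5.60 and 5.26 FPKM in AN1, AI3 and AI7 and at 4.66, 6.26, 4.84 and 31.3 in AN9, AN15, AN20 and AI10 (interaction adjusted p = 0.0234). Gm5523 was at 108 FPKM in AI10 and at 0.561 to 1.43 in the other 6 lines (interaction adjusted p = 0.00314). Among the 7 lines both stood apart in AI10. Of the 9 other lines, the AI P lines GS9 and GS4 had Cxcl1 values of 25.2 and 17.96 FPKM, while Gm5523 was under 2 FPKM in all 9.

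A few further genes were picked by hand after their values were seen, without a fixed list, and their interaction did not pass the adjusted threshold. Ccl2, a chemokine that attracts monocytes, was at 89.3 FPKM in AI10 and at 9.76 to 17.8 in the other 6 lines (interaction adjusted p = 0.0962). Ccl7, a related chemokine, was at 24.2 FPKM in AI10 and at 6.30 to 11.9 in the others (interaction adjusted p = 0.255). Tnfaip3, an inhibitor of NF-kappaB signalling, was at 6.42 FPKM in AI10 and at 1.61 to 2.204 in the others (interaction adjusted p = 0.255). Lif, the cytokine that is also added to the culture medium, was at 13.5 FPKM in AI10 and at 2.09 to 3.80 in the others (interaction adjusted p = 0.399). AI10 was the highest of the 7 lines in all 4 genes, but GS4 had 47.7 FPKM of Ccl2 and 22.7 of Ccl7.

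Gene lists were described by the number of tested members with a higher or lower fitted difference and by the median difference, beside 6524 of 11949 genes (54.6%) with a positive difference and a median of 0.02 over all tested genes. Counts within a derivation stand beside 6033 of the 11949 genes higher in the adult line within AN (median 0.003). Within AI 6801 were higher in the adult lines (median 0.05). Of the 40 fibroblast and feeder markers, 23 had a positive and 17 a negative difference, with a median of 0.08. Within AN, 39 of 40 were higher in the adult line (median 0.61), and within AI, 2 of 40 (median -0.49). The mean level of the list was 5.51, 5.53 and 4.89 in AN1, AI3 and AI7 and 4.74, 5.14, 4.83 and 5.70 in AN9, AN15, AN20 and AI10, as log2(FPKM + 1). AI10 was highest and AN9 lowest, both newborn only lines. The summed FPKM of the list was 2920 to 4213 in the adult lines and 2416 to 5156 in the newborn only lines. In a bulk library, fewer cells of a type and less RNA of that type per cell cannot be told apart.

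Some single fibroblast genes followed the list. Vim, an intermediate filament protein, was at 443, 631 and 432 FPKM in AN1, AI3 and AI7 and at 343, 396, 332 and 631 in AN9, AN15, AN20 and AI10. Col1a1, a chain of type I collagen, was at 165, 230 and 99.7 FPKM against 62.5, 121, 94.2 and 213. Tagln, an actin-binding protein of contractile cells, was at 491, 408 and 448 FPKM against 325, 489, 264 and 725. In Vim, Col1a1 and Tagln AI10 was near or above the highest adult line. Ctgf and Col6a2, the list members with the smallest p, departed from the list in 1 derivation each. Ctgf was at 87.2 FPKM in AN1 and at 83.6, 93.8 and 84.9 in AN9, AN15 and AN20 (difference within AN -0.001). Col6a2 was at 16.3 FPKM in AI10, under AN1 (20.1) and AI3 (22.9), with a difference within AI of -0.06. Of the 21 tested collagen chains, 19 were higher in the adult line within AN and 1 of 21 within AI, and of 16 tested Hox genes, 15 and 0. When the mean fibroblast marker level entered the fit, the number of genes at an unadjusted p under 0.05 was 408 higher and 270 lower, and Snord91a was the only gene called (adjusted p = 0.000295).

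**Figure D3:**
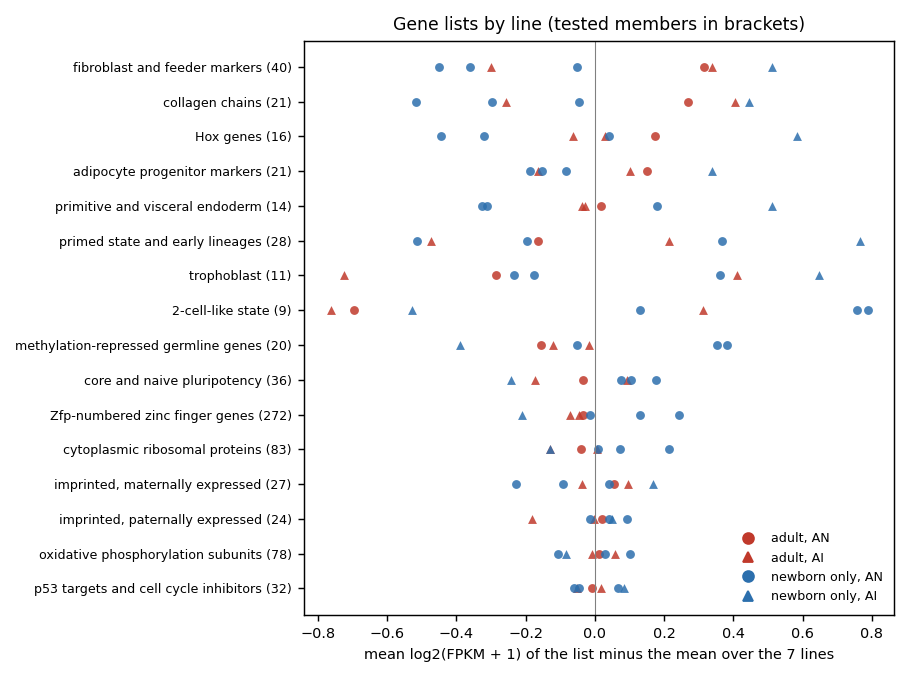
Mean log2(FPKM + 1) of 16 gene lists in each of the 7 lines, minus the mean over the lines (horizontal axis), in red for adult and blue for newborn only, as circles for AN and triangles for AI. Adult and newborn only lines overlap in every list shown, and AI10 (blue triangle) and AN9 or AN20 (blue circles) stand at opposite ends of several.

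Lists with the opposite profile were lower in AN1 than in the other AN lines and higher in AI3 and AI7 than in AI10. Methylation-repressed germline genes, which are silenced by promoter methylation in the soma, were higher in the adult line for 3 of 20 tested members within AN and for 17 of 20 within AI (medians -0.46 and 0.32). Sycp3, a protein of the meiotic chromosome axis, was at 10.7, 8.64 and 9.32 FPKM in AN1, AI3 and AI7 and at 16.1, 12.6, 14.9 and 8.33 in AN9, AN15, AN20 and AI10. Genes of Zfp-numbered zinc finger proteins were higher in 93 of 272 within AN and 200 of 272 within AI, and cytoplasmic ribosomal protein genes in 22 and 76 of 83. In all 3 lists the fitted difference over both derivations was near 0, with medians of -0.06, 0.00 and -0.01.

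Of the 3 lists of differentiating cells, the primed state and trophoblast lists, which share Krt8, Krt18, Cdx2 and Eomes, had negative medians in both derivations, and the endoderm list had medians of 0.22 within AN and -0.47 within AI. For the primed state and early lineages, 8 of 28 tested genes had a positive difference (median -0.41), and the median was -0.05 within AN and -0.89 within AI. For trophoblast genes, 4 of 11 did (median -0.67), with -0.50 within AN and -0.73 within AI. Krt8, a keratin of simple epithelia including trophoblast, was at 46.4, 18.7 and 128 FPKM in AN1, AI3 and AI7 and at 85.7, 166, 46.5 and 180 in AN9, AN15, AN20 and AI10. Cdx2, the trophectoderm factor, was at 0.590, 0.383 and 3.31 FPKM against 0.688, 2.59, 0.885 and 10.5. Mixl1, a factor of the primitive streak, was at 0.392, 0.456 and 1.92 FPKM against 0.640, 2.16, 0.511 and 5.83. The groups overlapped in these genes, and AI10 was the highest line in all 3. Other members of the primed list, taken here after their values were seen, had positive differences within both derivations, such as Pax6, a factor of the neural plate (log2 difference 0.64), Pou3f1 (0.57) and Otx2 (0.35). Dnmt3b, a DNA methyltransferase and the tested member of the list with the highest mean FPKM, was at 192, 285 and 161 FPKM against 168, 167, 195 and 171. The medians of both lists stayed negative under every alternative tried, and came nearest to 0 at -0.05 (primed state) and -0.06 (trophoblast). The alternatives reuse the same lines, so the kept sign is no independent support. In all, 1 member, Mixl1, had an unadjusted p under 0.05 (0.0383, limma), beside 1.97% of all genes higher and 1.39% lower.

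Genes of the 2-cell-like state, a rare state of cultured stem cells that resembles the early embryo, had a positive fitted difference in 0 of 9 tested members, with a median of -0.60 and 0 members at an unadjusted limma p under 0.05. They were lower in the adult line in 9 of 9 tested members within AN (median -1.45) and higher in 8 of 9 within AI (median 0.35). Zscan4c, its best known marker, was at 0.178, 0.219 and 2.096 FPKM in AN1, AI3 and AI7 and at 1.55, 4.23, 3.76 and 0.453 in AN9, AN15, AN20 and AI10. AI7 and the 3 newborn only AN lines were thus high, and AN1, AI3 and AI10 low. The closely related Zscan4 copies share reads, so single members are uncertain.

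Imprinted genes were found on both sides of the comparison. Of 27 tested maternally expressed genes, 14 had a positive and 13 a negative difference (median 0.01), and of 24 tested paternally expressed genes, 9 and 15 (median -0.10). At an unadjusted p under 0.05, 0 maternally expressed genes were higher and 2 lower, and 1 paternally expressed gene was higher and 1 lower, beside 1.97% and 1.39% of all genes, and 0 imprinted genes passed the adjusted threshold of limma. Grb10, which encodes an adaptor protein that restrains insulin and growth factor receptors, was at 46.1, 54.9 and 36.9 FPKM in AN1, AI3 and AI7 and at 39.9, 36.8, 45.1 and 44.9 in AN9, AN15, AN20 and AI10. The groups overlapped, with means of 46.0 ± 9.0 (SD, n = 3) and 41.7 ± 4.1 (SD, n = 4) and an exact permutation p of 0.400. A split of 7 lines into 3 and 4 has 35 forms, so the smallest two-sided p of this test is 0.0571.

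The genes of the Dlk1-Dio3 region were taken in the same way. Meg3 (also called Gtl2), a maternally expressed noncoding RNA, was at 123, 119 and 69.8 FPKM in the adult lines and at 87.4, 102, 75.3 and 86.5 in the newborn only lines (exact permutation p = 0.514). Rian, the noncoding RNA next to it, was at 134, 124 and 101 FPKM against 127, 119, 110.1 and 117 (exact permutation p = 0.971). AI7 had the lowest value of both transcripts among the 7 lines. Dlk1, the paternally expressed ligand of the region, was at 2.34, 4.09 and 1.76 FPKM against 1.42, 2.23, 1.34 and 2.40 (exact permutation p = 0.286). Rtl1, a paternally expressed gene derived from a retrotransposon, was at 0.951, 1.35 and 0.931 FPKM in the adult lines and at 0.538, 0.823, 0.458 and 0.739 in the newborn only lines. The groups of Rtl1 did not overlap, and its exact permutation p of 0.0571 is the smallest the design allows. Its mean was under 1 FPKM, so it was not in the fit. An antisense transcript overlaps Rtl1, and whether the counting used strand is not given in the sources used here.

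**Figure D4:**
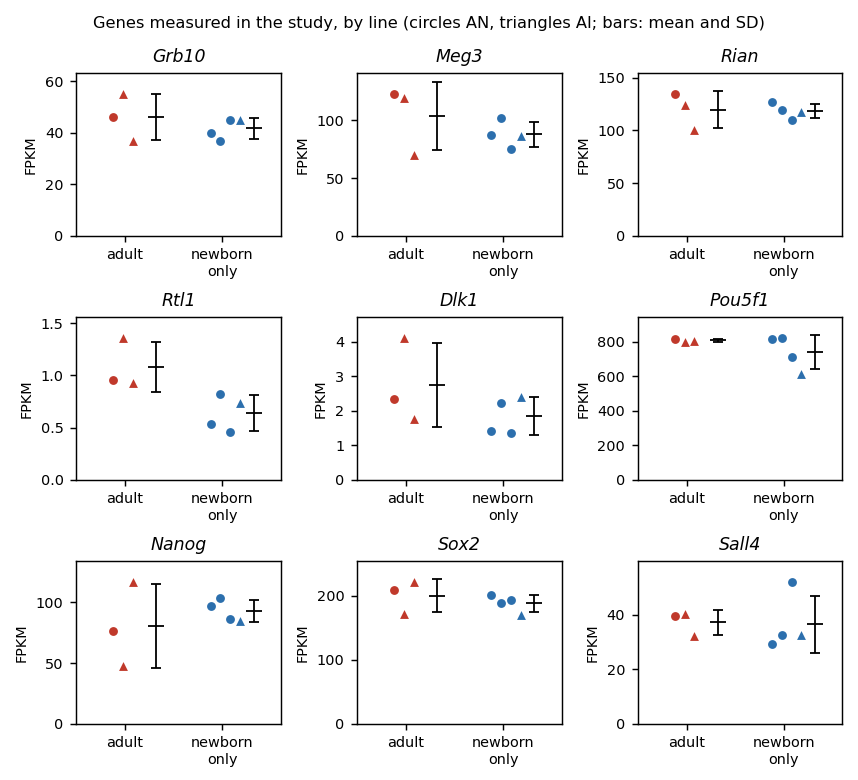
FPKM of 9 genes measured in the study in the 3 adult (red) and 4 newborn only (blue) lines, as circles for AN and triangles for AI, with the mean and SD of each group as a bar. Only Rtl1, at 0.931 to 1.35 against 0.458 to 0.823, has groups that do not overlap.

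Among the other imprinted genes, those with the smallest p had log2 differences from -0.58 (Tfpi2) to 0.37 (Nespas). That of Tfpi2 was the largest in absolute size of the maternally expressed list. Peg3, a paternally expressed zinc finger gene, was at 24.2, 37.2 and 42.6 FPKM in AN1, AI3 and AI7 and at 31.5, 41.1, 42.05 and 52.96 in AN9, AN15, AN20 and AI10. Its groups overlapped, but the adult lines were lower within each derivation (log2 difference -0.52, SE 0.15, adjusted limma p of 0.994). Nespas, the antisense transcript of the Gnas locus, was at 2.12, 1.90 and 1.58 FPKM against 1.27, 1.42, 1.46 and 1.16, and its groups did not overlap. Copg2, a subunit of the coatomer, was at 14.51, 15.5 and 17.6 FPKM against 17.7, 17.2, 18.3 and 19.6. Tfpi2, a protease inhibitor of the extracellular matrix, was at 2.04, 1.87 and 3.56 FPKM against 3.28, 2.74, 3.64 and 4.93.

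H19 and Igf2, the reciprocally imprinted pair that restrains and promotes fetal growth, followed the fibroblast markers. H19 was at 249, 193 and 196 FPKM in AN1, AI3 and AI7 and at 111, 155, 106 and 260 in AN9, AN15, AN20 and AI10. Igf2 was at 131, 123 and 76.7 FPKM against 53.8, 95.4, 66.9 and 136. In both genes AN9 and AN20 were lowest and AI10 highest. The log2 difference of H19 was 1.02 within AN and -0.42 within AI, and that of Igf2 was 0.89 and -0.48. With passage in place of derivation as the term, AN9, AN15 and AN20, the only lines of the 7 at passage 6, were fitted by that term. The outcome difference then set AN1, AI3 and AI7 against AI10 alone, and was -0.30 for H19 and -0.34 for Igf2.

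Pluripotency genes were found on both sides in equal number. Of 36 tested core and naive pluripotency genes, 18 had a positive and 18 a negative difference, with a median of 0.02, and 0 had an unadjusted limma p under 0.05, beside 1.97% of all genes higher and 1.39% lower. Within AN 10 of the 36 were higher in the adult line, and within AI 28 of 36. Nanog, a core factor that fluctuates in culture, was at 76.8, 47.7 and 116 FPKM in AN1, AI3 and AI7 and at 97.3, 104, 86.5 and 84.6 in AN9, AN15, AN20 and AI10. The extremes of Nanog were both adult lines. Sox2, the partner of Oct4, was at 208, 171 and 221 FPKM against 201, 189, 193 and 169. Sall4, a zinc finger factor of the same network, was at 39.3, 40.4 and 31.98 FPKM against 29.1, 32.5, 51.8 and 32.4. The exact permutation p was 0.514 for Nanog, Sox2 and Pou5f1 and 0.857 for Sall4.

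Of 78 tested oxidative phosphorylation subunits, 54 had a positive difference (median 0.06). Within AN 36 of the 78 were higher in the adult line (median -0.005), and within AI 68 (median 0.13), where the difference rests on AI10. Over all tested genes these medians were 0.003 and 0.05. The adult lines lay above all newborn only lines in 6 and below in 1 (7.69% and 1.28% of the list, beside 3.58% and 2.13% of all genes). Of 34 genes of DNA methylation and imprint maintenance, 22 were positive (median 0.05), with 14 higher within AN (median -0.10) and 24 within AI (median 0.25). Ahcy, which removes the product that inhibits methyltransferases, was at 262, 239 and 258 FPKM in the adult lines and at 219, 236, 212 and 211 in the newborn only lines, without overlap. Gadd45a, a stress gene linked to DNA repair and demethylation, was at 101, 89.6 and 89.7 FPKM against 85.6, 87.3, 86.3 and 74.3, also without overlap. The p53 targets (14 of 32 positive), hypoxia and glycolysis genes (15 of 37), the growth factor and insulin pathway (16 of 33), the adipocyte progenitor markers (13 of 21), the primitive and visceral endoderm genes (7 of 14) and the histone genes (7 of 14) had medians from -0.11 to 0.03. Among 229 tested small RNA genes, 106 were positive and 123 negative (median -0.21).

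Trp53inp1, a p53 target that promotes cell cycle arrest and autophagy, lay lower in every adult line, at 19.4, 21.0 and 21.2 FPKM against 23.4, 28.0, 34.8 and 26.4. The genes Uty, Ddx3y and Eif2s3y on the Y chromosome were above 0 in all 7 lines. Eif2s3y was at 28.9, 36.2 and 36.4 FPKM in AN1, AI3 and AI7 and at 19.8, 21.5, 37.3 and 37.3 in AN9, AN15, AN20 and AI10, and did not separate by outcome.

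To see whether a line differed over a whole chromosome, the median over the genes of each chromosome of the log2 value minus the mean of the 7 lines was taken for 11758 tested genes with 1 annotated chromosome. In the 7 lines these medians stayed within 0.10 of 0 for the 19 autosomes and the X chromosome. None of the 7 lines therefore showed a shift of a whole chromosome of the size seen in some other lines of the series. In the AI P line GS4, chromosome 8 was at 0.40, with 82.9% of its 636 genes above the mean of the 7 lines, and in the AN P line AN7 it was at 0.20, with 80.3% above. The X chromosome of the AI P line GS9 was at 0.14.

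**Figure D5:**
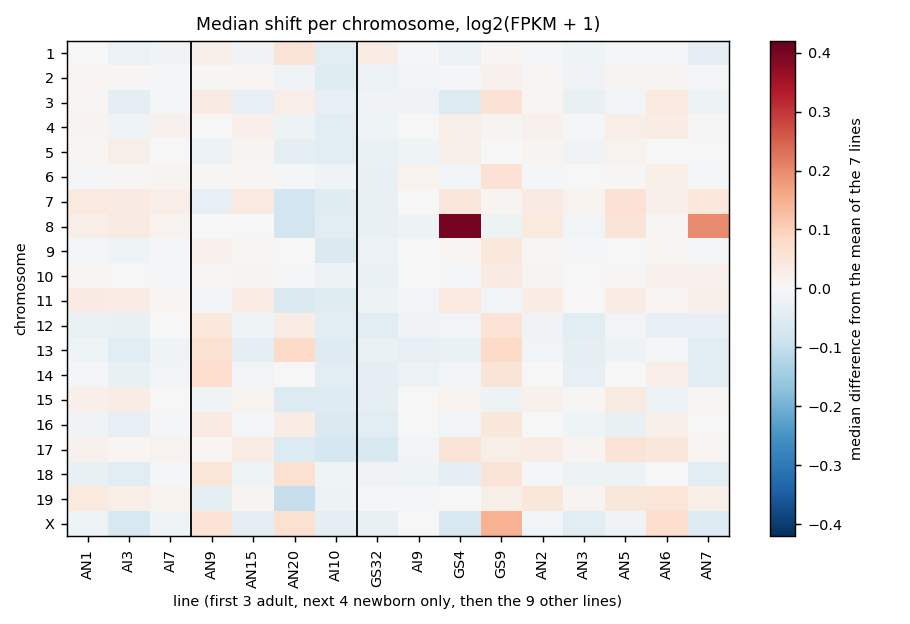
Median difference in log2(FPKM + 1) from the mean of the 7 lines for each chromosome (rows) and line (columns), with the 3 adult lines first, the 4 newborn only lines next and the 9 other lines last. The 7 compared lines stay within 0.10 of 0, and the darkest cells are chromosome 8 in GS4 (0.40) and AN7 (0.20).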

How the data were processed

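RNA of 16 mouse lines was sequenced as single 50-base reads, 1 library per line. The authors mapped reads to mm9 with TopHat2 (2.1.0) and calculated FPKM with Cufflinks (2.2.1). HTSeq is also listed, and the source of the gene annotation is not given in the sources used here. The deposited FPKM table was used as it stands. Columns were matched to lines by title, and outcomes to lines by the study's tetraploid complementation record.

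For the 7 lines, log2(FPKM + 1) of genes with mean FPKM of at least 1 was fitted with limma 3.58.1 in R 4.3.3 (mean-variance trend, outcome and derivation as terms), with Benjamini-Hochberg adjustment over 11949 genes. The interaction of outcome and derivation was a second fit. The study's own test needs reads and was not run. Exact two-sided permutation tests for the 9 genes the study measured used scipy 1.17.1 in Python 3.11.15. The fit was also run on simulated data with normal noise and added changes, as a check of the code and not of the results here. The replicate is the cell line, so p-values measure the spread between lines.

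Named genes were those called, the 30 leading genes, the study's genes, and in each of 22 lists the 2 most expressed and the 2 with the smallest p. Any other gene is said to be chosen after its values were seen. The members and lists were chosen with earlier results of these data known. Relative depth came from the most common ratio of low values between lines. Sequences and positions came from the mm9 genome and GENCODE vM1. Alternatives were other terms, pseudocounts, filters, scalings and priors, other sets of lines, and leaving out each line.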

Additional observations from a re-analysis of the deposited data

Results flagged for a closer look

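In the newborn only group of 4 lines, the gap between 1 line and the next was tested against Dixon's 95% critical value for 125 named genes, for 22 lists and for the mean over all genes, and 16 of the 148 sets of values exceeded it. Chance alone marks about 1 in 20 of such sets, and the named genes were not chosen at random. Gm5523, Cxcl1, Ccl2, Lif, Ccl7 and Tnfaip3 were picked after their high values in AI10 were seen, so their flags follow from that choice. The 16 can therefore not be set against the chance rate. AI10 stood apart, highest, in Gm5523 (gap over range 0.993), Ccl2 (0.984), Tnfaip3 (0.958), Cxcl1 (0.940), Lif (0.854), Ccl7 (0.848) and Ctgf (0.830), and lowest in Stoml1 (0.896), Gadd45a (0.872) and Cdc25b (0.832). AN20 stood apart in Sall4 (0.849) and Dnmt3b (0.854), where it was highest, and lowest in the mean of the hypoxia response and glycolysis list (0.903). AN15 was highest in Apoo-ps (1.00) and AA465934 (0.832), and AN9 in Rps27l (0.858).

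Limma's interaction test of outcome and derivation passed the threshold for 23 genes, among them Gm5523 (adjusted p = 0.00314) and Cxcl1 (0.0234). Each derivation has a single line on one side, so the test cannot tell a single line that stands apart, such as AI10 in both genes, from an effect of outcome that differs between AN and AI. In 9 lists every AN comparison went one way and every AI comparison the other, and this difference was not tested. The mean level was higher in AN1 than in each other AN line, and lower in AI3 and AI7 than in AI10, for fibroblast and feeder markers (0.60 within AN on the log2 scale), collagen chains (0.56), Hox genes (0.42), adipocyte progenitor markers (0.29) and maternally expressed imprinted genes (0.15). It went the other way for methylation-repressed germline genes (-0.38), Zfp-numbered zinc finger genes (-0.15), core and naive pluripotency genes (-0.15) and cytoplasmic ribosomal proteins (-0.14). The same opposition was found in 19 named genes and in 2759 of all tested genes.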

How the results depend on the processing

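Snord91a was called in 19 of the 20 alternatives that tested it. These 19 reuse the same zeros in the adult lines and the same few steps in the newborn only lines, so the count is no independent support. The exception was the fit of all 16 lines (adjusted p = 0.9996, 0 genes lower), and leaving out small RNA genes or genes at 0 in any line left 0 lower. Genes lower at an adjusted p under 0.05 were 2 with no derivation term and at a threshold of 0.1, 3 with a pseudocount of 0.1, 4 within AN and 30 within AI, with 11 and 5 higher. Passage in place of derivation gave 1 higher and 14 lower. At an unadjusted p, higher and lower were 716 and 523 with passage, 416 and 347 with no filter, 374 and 254 within AN and 408 and 270 with the fibroblast term, and lower were 95 at a minimum of 5 FPKM and 366 within AI. All adult lines lay below in 405 genes with no filter, above and below in 3488 and 3068 within AN and in 5025 and 3482 within AI. The interaction count was 2 without small RNA genes and 3 with genes above 0. Leaving out a line gave 0 to 8 higher and 1 to 15 lower at the adjusted threshold, 107 to 430 and 58 to 383 unadjusted, 539 to 1306 above, 319 to 918 below and 26 to 38 interactions. Without AN1 there were 3 higher and 15 lower, and without AI10 8 and 5, mostly small RNA genes, and without AI3 the unadjusted counts were the lowest. With fewer lines to separate, more genes did not overlap, up to 1306 above and 882 below without AI7 and 1003 and 515 without AN15. The other causes were not tested. The medians of 17 of 22 lists turned in sign under at least 1 alternative. The sign of the leading genes is held by the rule that chose them. Relative depth and 1 library per line limit these counts. No paired analysis was possible because replicate numbers are only names of lines.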
